A study of Caenorhabditis elegans with 2 samples.

Results

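Of the 30000 regions in the pooled list of ELT-3 chromatin immunoprecipitation with sequencing (ChIP-seq), 5530 were distal intergenic, a share of 18.4% (95% Wilson interval 18 to 18.9). A region was distal intergenic when its summit lay outside every protein-coding gene body, over 1000 bp from any start of a protein-coding transcript and over 200 bp from any tRNA, rRNA, snRNA or snoRNA gene, in the ce11 build with Ensembl release 115 gene models. The same rule found 5653 regions (18.8%) in the list of replicate 2 and 5619 (18.7%) in that of replicate 1. The material was whole Caenorhabditis elegans in the L2 larval stage, of strain OP75, whose genotype is given as unc-119(ed3) III; wgIs75. The labels describe a stable transgenic line in which ELT-3 carries GFP and FLAG at its C terminus, and they give neither the promoter nor the copy number of the transgene. The 2 biological replicates, each of mixed sex, form 1 group, and no control sample was analysed here.

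ELT-3 is a GATA-type zinc finger transcription factor of the hypodermis, the epithelium that secretes the cuticle. GATA factors bind short sites around the letters GATA, and in the worm the extended site TGATAA is typical. In a compact genome most regulatory sequence sits close to gene starts, and intergenic sequence further away can hold enhancers and sites for proteins that organise a whole chromosome.

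Regions were ranked by the signal value of the authors' peak caller, whose scale is not stated and which was used only within a list. The 500 highest distal regions, called high regions, had pooled signal values of 23.9 to 94.8 (median 27.1). They were set against the 2870 distal regions under the whole list's median of 16.4, called low regions, which had values of 12.6 to 16.4 (median 14.2). At the border, the region at rank 500, between R12B2.2 and R12B2.7, had a signal value of 23.85, and the next one, between unc-95 and lev-10, had 23.84. The deposited lists join peaks with background, and 6 of the 5530 had a q-value below 0.05 as the authors give it, against 15 of all 30000 pooled regions. Among the 500 highest distal regions of each replicate's own list, 7 of replicate 2 were below it. In replicate 1 it was 0 of 500, with a lowest q of 0.0698. The same count over all regions of each replicate's list was not made, so these counts have no background share. The files give no read totals, so sequencing depth is unknown and intervals cover only the counting of regions.

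The first sequences shown are from 4 of the 5 high regions that held the letters CGCGCAGGG, read on both strands, up to 100 bp from the summit, and they include the highest region of the entire list. This word is the core of a motif known to recruit the dosage compensation complex of the worm to X. Dosage compensation lowers transcription from both X chromosomes of hermaphrodites to match the single X of males. The word was searched for after the sequences of the highest regions had been read, so its counts are descriptions. Each sequence holds 201 bases of the plus strand centred on the summit (ce11, RefSeq sequence), 5′ to 3′, with the word or its reverse complement in capitals.
W04G3.11 to W02H3.3, chrX:11094097-11094297: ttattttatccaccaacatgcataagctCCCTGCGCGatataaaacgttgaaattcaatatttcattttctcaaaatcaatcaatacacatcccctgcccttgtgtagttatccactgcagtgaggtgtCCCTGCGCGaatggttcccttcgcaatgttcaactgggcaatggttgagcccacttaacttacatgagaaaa
C34D10.1 to xol-1, chrX:8036291-8036491: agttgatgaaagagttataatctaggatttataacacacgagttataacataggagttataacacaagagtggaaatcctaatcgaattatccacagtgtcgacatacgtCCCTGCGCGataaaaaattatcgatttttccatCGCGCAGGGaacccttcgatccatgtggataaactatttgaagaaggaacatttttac
F20B6.9 to hpk-1, chrX:4209191-4209391: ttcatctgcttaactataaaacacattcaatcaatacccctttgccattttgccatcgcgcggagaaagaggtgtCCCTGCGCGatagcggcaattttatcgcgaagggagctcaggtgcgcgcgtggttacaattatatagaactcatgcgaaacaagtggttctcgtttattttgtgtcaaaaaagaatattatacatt
gtr-1 to F25E2.2, chrX:806530-806730: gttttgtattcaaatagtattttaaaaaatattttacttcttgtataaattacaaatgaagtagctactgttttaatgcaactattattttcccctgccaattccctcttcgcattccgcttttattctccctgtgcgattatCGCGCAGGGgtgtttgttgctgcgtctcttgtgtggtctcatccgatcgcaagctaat

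The next 4 sequences are from the 4 highest high regions with at least 2 copies of TGATAA within 50 bp of the summit. They were taken by signal value and not by their number of sites. Capitals mark TGATAA or its reverse complement, in the same window and on the same strand as above.
Y37A1A.2 to Y37A1A.4, chrIV:13919269-13919469: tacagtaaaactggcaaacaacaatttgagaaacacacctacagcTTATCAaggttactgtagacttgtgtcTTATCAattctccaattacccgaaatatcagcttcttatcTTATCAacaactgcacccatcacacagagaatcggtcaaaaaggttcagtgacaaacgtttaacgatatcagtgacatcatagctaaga
adm-2 to K02D3.1, chrX:13700996-13701196: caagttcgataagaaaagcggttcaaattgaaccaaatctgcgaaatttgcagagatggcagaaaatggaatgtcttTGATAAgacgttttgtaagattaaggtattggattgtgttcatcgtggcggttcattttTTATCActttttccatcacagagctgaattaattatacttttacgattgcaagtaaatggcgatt
D1005.5 to acly-1, chrX:1477943-1478143: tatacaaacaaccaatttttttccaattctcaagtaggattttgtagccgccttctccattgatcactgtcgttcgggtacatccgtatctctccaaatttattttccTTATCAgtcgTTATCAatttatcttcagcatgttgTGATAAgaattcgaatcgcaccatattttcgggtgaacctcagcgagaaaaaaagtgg
tag-290 to nlp-24, chrV:11614868-11615068: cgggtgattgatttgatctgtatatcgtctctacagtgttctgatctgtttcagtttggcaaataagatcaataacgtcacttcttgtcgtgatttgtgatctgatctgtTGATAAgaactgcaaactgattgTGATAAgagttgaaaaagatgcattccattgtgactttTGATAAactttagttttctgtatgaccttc

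Distal regions made up 33% of the 100 highest pooled regions (95% interval 24.6 to 42.7), against 18.4% of the whole list. Split further, distal regions made up 10 of the 33 highest regions (30.3%, 17.4 to 47.3) and 23 of the next 67 (34.3%, 24.1 to 46.3). Their share was 16.8% in the rest of the first 1000, 15.6% from there to rank 5000, and 19.1% below the list's median. Among the 100 highest regions of the replicates' own lists, distal regions numbered 31 in replicate 2 (22.8 to 40.6%) and 15 in replicate 1 (9.31 to 23.3%). Among the 100 highest regions the distal share thus lay above that of the whole list in the pooled list and in replicate 2, and not in replicate 1. Among the 1000 highest it was 18.4% in the pooled list, 18.8% in replicate 2 and 16.7% in replicate 1. The shares of the whole lists were 18.4%, 18.8% and 18.7%. This comparison of lists was added after the values were seen and was not tested.

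The highest distal region, between W04G3.11 and W02H3.3 on X (chrX:11094022-11094371), was also the highest of the 30000 pooled regions, with a signal value of 94.8. It ranked 1st in replicate 2, with a signal value of 62.4, and 2nd in replicate 1, with 38.3. Its gap was convergent, the flanking genes pointing at each other, and the nearest start, that of W02H3.3, lay 3989 bp away. The region held 2 copies of CGCGCAGGG and no TGATAA within 100 bp.

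Next came the region between ZK899.6 and gap-2, a Ras GTPase-activating protein gene, also on X, at a signal value of 77.7 and at ranks 6 in replicate 2 and 5 in replicate 1. The region between dot-1.4, of the DOT1 histone methyltransferase family, and F55G7.5 reached 62.9, at ranks 11 in replicate 2 and 17 in replicate 1. The region between C34D10.1 and xol-1, the master switch gene of sex determination, reached 55.5, at ranks 13 in replicate 2 and 108 in replicate 1. It lay 4922 bp from the start of xol-1 and held 2 copies of CGCGCAGGG. These regions were near the top in both replicates, and so were the regions beside nhr-3, a nuclear hormone receptor gene (signal value 51, ranks 128 in replicate 2 and 15 in replicate 1), and between F20B6.9 and hpk-1, a homeodomain-interacting protein kinase gene (48.3, ranks 42 and 128).

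Off X, the strongest distal regions lay in other surroundings. The region between prhg-1 and nas-30, an astacin metalloprotease gene, reached a signal value of 73.3, at ranks 4 in replicate 2 and 3 in replicate 1. It sat in soft-masked sequence for 50.7% of its 201 bases, and 48.8% of the 36-base words there occurred more than once in the genome. The region between Y37A1A.2 and Y37A1A.4 on chromosome IV reached 56.3, at ranks 18 in replicate 2 and 39 in replicate 1, and held 3 copies of TGATAA. It lay in a divergent gap of 21356 bp, 6340 bp from the nearest start. The region between F11G11.14 and the cuticle collagen gene col-17 had 48.5. Its rank was 7 in replicate 2 but 11080 in replicate 1, and it was in the authors' short list of regions that passed their irreproducible discovery rate (IDR) threshold.

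The remaining regions of the 15 highest carried signal values of 42.8 to 46.3. They flanked mdl-1, a Mad-like bHLH gene, dmd-6, a DM-domain gene, osm-11, which encodes a secreted co-ligand of Notch receptors, the crumbs homologues crb-1 and crb-3, and adm-2, an ADAM metalloprotease gene. The last region of this set, between adm-2 and K02D3.1, shared its gap with the member at rank 26 whose sequence is shown above. The region between C30E1.4 and F52G3.8 ranked 19 in replicate 2 and 3444 in replicate 1.

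**Figure D1:**
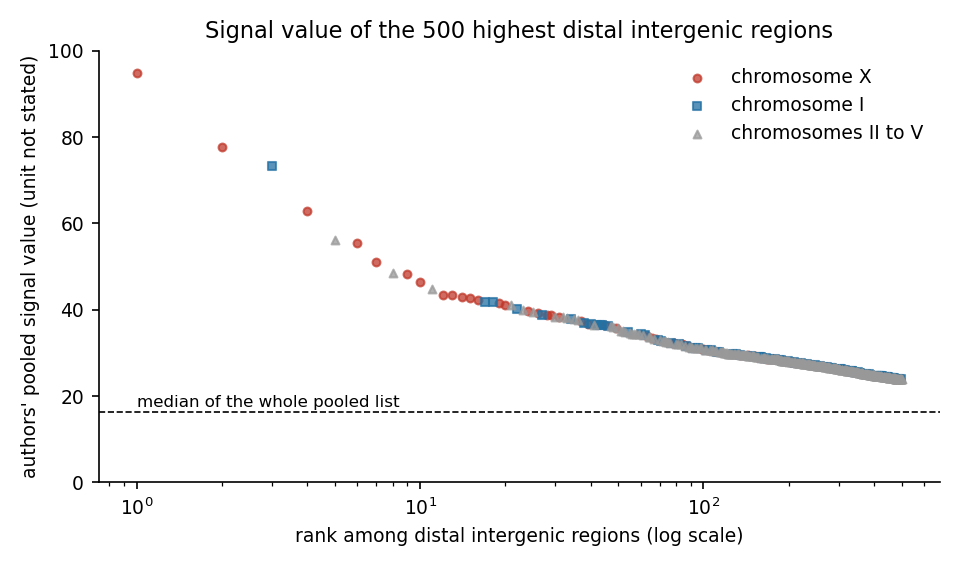
Pooled signal value (vertical axis, authors' unit) of the 500 highest distal intergenic regions by rank (horizontal, log scale). Points are coloured by chromosome; 14 of the 20 highest lie on X, the highest at 94.8, and all lie above the whole list's median of 16.4 (dashed).

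X carried 14 of the 20 highest distal regions (70%) and 9 of the next 30 (30%). Of all distal regions 22.2% lay on X, and of the whole list 17.9%. Over all 500 high regions the share on X was lower than at the top, 19%, against 22.5% of the low regions (95 of 500 and 647 of 2870). That difference did not pass the test (odds ratio 0.806, 95% interval 0.634 to 1.02, adjusted p = 0.265, Fisher's exact test with Benjamini-Hochberg adjustment over 10 features). The number 20 was chosen after the values were seen, so the share at the top is a description. In the replicates' own lists the direction was the opposite and passed in neither, with X carrying 26.8% of high and 23.4% of low regions in replicate 2 (odds ratio 1.2, adjusted p = 0.225, Fisher's exact test) and 21% and 20.4% in replicate 1 (odds ratio 1.04, adjusted p = 0.908, Fisher's exact test).

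CGCGCAGGG occurred in 5 of the 500 high regions, all of them among the 95 on X (5.26%, 95% interval 2.27 to 11.7). It occurred in 0 of the 405 high regions on autosomes, which allows a share of up to 0.741%, and in 0 of the 2870 low regions, which allows up to 0.105%. No other distal region held it, so these 5 were all that held it among 5530. In the whole pooled list 16 of the 30000 regions held it (0.0533%), 13 on X and 3 on autosomes. Among the 33 regions of the IDR list it was present in 6 of the 13 on X and in 0 of the 20 on autosomes.

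Every distal region with the word ranked within the 49 highest. Besides the regions beside W04G3.11, xol-1 and hpk-1, they were the region between gtr-1 and F25E2.2, at a signal value of 38.8 and at ranks 230 in replicate 2 and 370 in replicate 1, and the region between F22H10.2 and F22H10.11, at 35.8 and at ranks 299 and 1976. None of the 5 held TGATAA within 100 bp. In the replicates' own lists the word was in 5 of the 500 high regions of replicate 2, 4 of them on X, and in 4 of the 500 of replicate 1, all on X, against 0 of the 2935 and 0 of the 2952 low regions.

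GATA sites close to the summit were more frequent in high than in low regions of the pooled list. Within 50 and 100 bp the difference passed in neither replicate's own list. TGATAA lay within 100 bp of the summit in 107 of the 500 high regions (21.4%) and in 489 of the 2870 low regions (17%), against 16.4% of all 30000 regions. With 10 features tested, this difference did not pass (odds ratio 1.33, 95% interval 1.05 to 1.68, unadjusted p = 0.0221, adjusted p = 0.110, Fisher's exact test). With the 250 highest regions in place of 500 the odds ratio was 1.47, and with the 1000 highest it was 1.05. Neither passed. Within 50 bp, TGATAA was in 74 high regions (14.8%) and 247 low regions (8.61%), and there the difference passed (odds ratio 1.84, 1.4 to 2.44, adjusted p = 3.4e-04, Fisher's exact test). In the same window of the replicates' own lists, the shares were 12.6% of high and 9.74% of low regions in replicate 2 (odds ratio 1.34, 0.998 to 1.79) and 8.2% and 8.64% in replicate 1 (odds ratio 0.945, 0.67 to 1.33), and neither passed (unadjusted p = 0.0546 and 0.796, Fisher's exact test). In the pooled list the difference also passed within 150 bp (odds ratio 1.37, adjusted p = 0.0203, Fisher's exact test). Each window was adjusted for the 10 features by itself, and not across windows. In that window the shares in replicate 2 were 31.2% of high and 25.2% of low regions (odds ratio 1.34, 1.09 to 1.65). In replicate 1 they were 23.6% and 24% (0.977, 0.782 to 1.22). These 2 intervals are not adjusted for the 10 features.

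High regions were richer in G and C than low regions, with median GC contents of 39.8% and 36.3%, and TGATAA is itself rich in A and T. With regions split into 3 equal classes by GC, TGATAA was in 27.2% of high and 22.9% of low regions of the lowest class. In the middle class the shares were 25.1% and 16.4%, and in the highest class 16.3% and 10.4%. High regions led in each class. With GC class taken into account by the Mantel-Haenszel method, the odds ratio was 1.57 and the difference passed the threshold.

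Within 100 bp, TGATAA passed in neither replicate's list. In the list of replicate 2, it was in 22.4% of high and 17.8% of low regions (odds ratio 1.33, 95% interval 1.06 to 1.68, adjusted p = 0.0883, Fisher's exact test). In the list of replicate 1 the shares were 16.4% and 17.2% (odds ratio 0.944, 0.731 to 1.22, adjusted p = 0.908, Fisher's exact test). The site was held by 112 of the 500 high regions of replicate 2 and by 82 of the 500 of replicate 1. Set against each other, these counts gave an odds ratio of 1.47. With 1 library on each side, no difference between the replicates can be judged from it.

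Around the summits of high pooled regions, TGATAA reached 10.6 sites per 100 regions in the 50 bp before the summit and 8.2 in the 50 bp after it. In the other bins out to 500 bp on either side, high regions had 3.8 to 6.6 sites per 100 regions. Low regions had 4.29 and 5.54 in the 2 central bins. High regions with 3 or more sites within 100 bp numbered 10 of 500, against 15 of 2870 low regions.

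**Figure D2:**
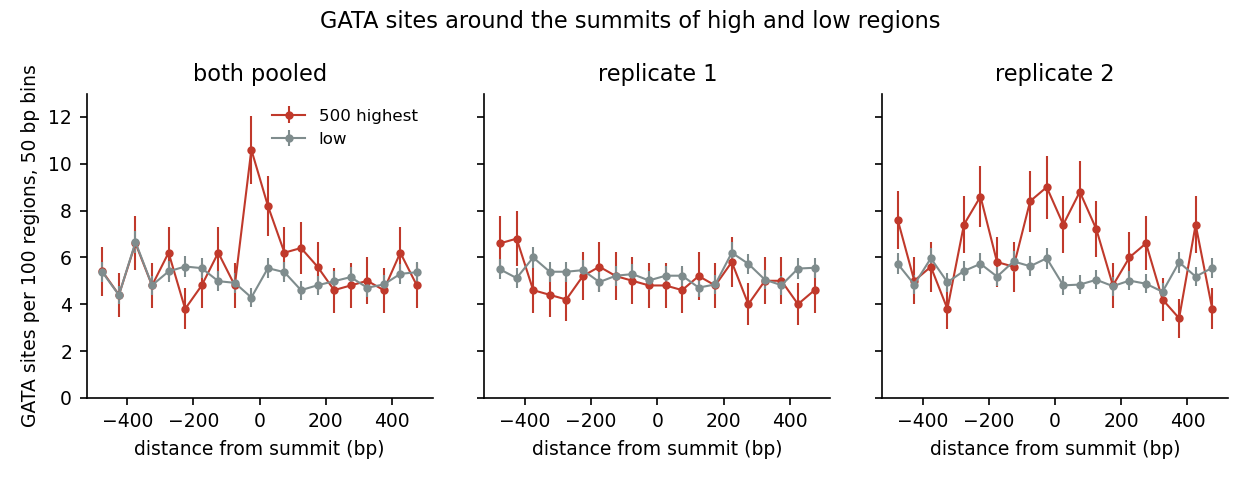
TGATAA sites per 100 regions (vertical axis) in 50 bp bins around the summit (horizontal, bp) for the 500 highest and the low distal regions of the pooled list and of each replicate's list. Bars are the square root of the site count over the number of regions. High pooled regions reach 10.6 just before the summit, against 4.29 in low regions. Replicate 1 has no such central rise. High regions of replicate 2 have 9 and 7.4 in the central bins, and 8.4 and 8.8 in the bins next to them.

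Of the 4 regions shown with at least 2 copies of TGATAA within 50 bp, 3 were high in replicate 2 alone. The region between D1005.5 and acly-1, an ATP citrate lyase gene, held 3 copies within 50 bp and reached 38.7 in the pooled list, with rank 52 in replicate 2 and 9781 in replicate 1. The region between tag-290 and the neuropeptide-like gene nlp-24, 1408 bp from the start of nlp-24, had 37.9, with rank 33 in replicate 2 and 3655 in replicate 1. The second region between adm-2 and K02D3.1 had 39.2, with rank 67 in replicate 2 and 8167 in replicate 1. The region beside Y37A1A.2 was high in both.

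Over all 16 high regions with 2 or more copies within 50 bp, 10 ranked higher in replicate 2 and 6 in replicate 1. Among the 74 high regions with any copy within 50 bp, 40 ranked higher in replicate 2 (54.1%), and among the 426 without one, 230 did (54%). The median ranks of the regions that were found in each replicate were 2003 in replicate 2 and 5526 in replicate 1 with a copy, against 3061.5 and 3589 without one. The 2 summaries thus differ, and neither was tested.

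The wider GATA site, A or T before GATA and A or G after it, was in 39.4% of high and 36.4% of low regions (odds ratio 1.14, 95% interval 0.934 to 1.38, adjusted p = 0.419, Fisher's exact test). Within 50 bp its difference passed (odds ratio 1.33, adjusted p = 0.0418, Fisher's exact test). For regions near a start, TGATAA was in 20.6% of the 500 highest and 16.7% of those below the median, and for intronic regions in 17.6% and 15.4%. Exonic regions had it in 13.8% and 16.8%. The difference between distal and other regions was not tested.

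With GATA sites counted within 100 bp, chromosome I was the only one of the 10 features on which high and low distal regions differed past the threshold. It carried 100 of the 500 high regions (20%) and 398 of the 2870 low regions (13.9%), against 14.7% of all distal regions and 18.4% of the whole list. The high share thus lay near that of the whole list. High over low regions had an odds ratio of 1.55 (95% interval 1.22 to 1.98, adjusted p = 0.00614, Fisher's exact test). The direction was the same in replicate 2, with 19.4% of high and 13.7% of low regions (odds ratio 1.52, adjusted p = 0.0122, Fisher's exact test), and in replicate 1, with 23.6% and 12.4% (odds ratio 2.18, adjusted p = 3.9e-09, Fisher's exact test). With the 250 highest regions in place of 500 the odds ratio was again 1.55 and the adjusted p was 0.0669, so the call was lost.

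High regions were more frequent than low ones in the left and middle parts of the chromosome. The first 5 Mb held 59 of the 100 high regions on chromosome I, which is 11.8% of all high regions, and 159 of the 398 low ones, which is 5.54% of all low regions. From 5 to 10 Mb the counts were 26 (5.2% of all high regions) and 96 (3.34% of all low regions), and from 10 Mb to the right end they were 15 (3%) and 143 (4.98%). In replicate 1 the middle window held 6.2% of high and 2.74% of low regions. In the replicates' own lists the first 5 Mb likewise held most of the high regions on the chromosome, 58 of 97 high regions in replicate 2 and 69 of 118 in replicate 1. These windows were set after the values were seen and were not tested.

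**Figure D3:**
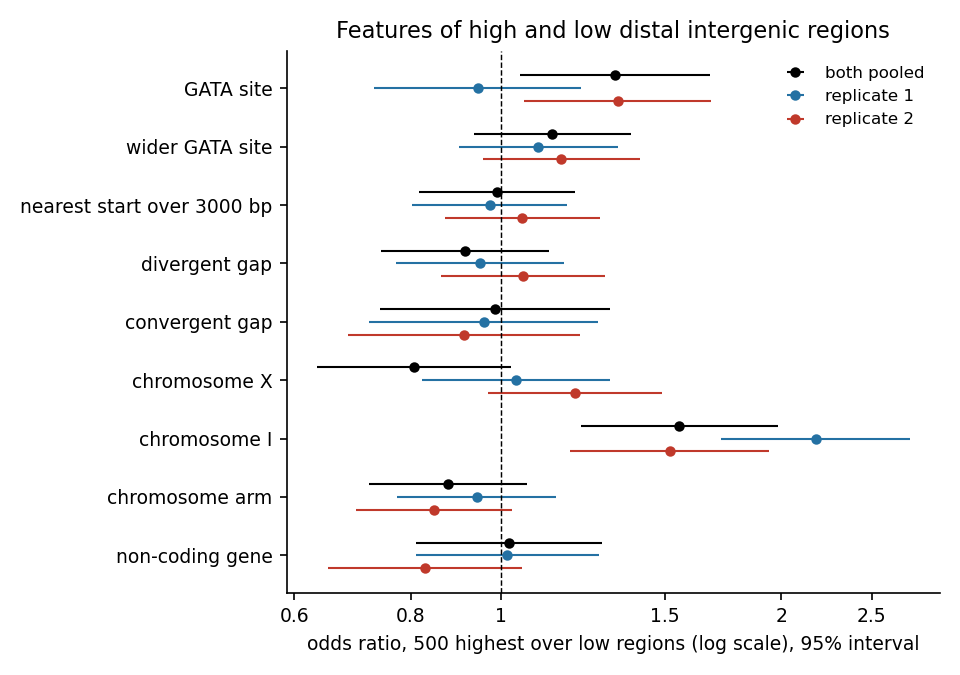
Odds ratio of 9 of the 10 features (log scale, high over low distal regions) with 95% intervals, in the pooled list, replicate 1 and replicate 2. Chromosome I lies above 1 in all 3 lists (1.55, 2.18 and 1.52), and the GATA site (TGATAA) does so in the pooled list and replicate 2. The rare repeated sequence is left out.

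High and low regions lay at similar distances from genes. The median distance to the nearest protein-coding start was 2543 bp (quartiles 1653 and 4374) for high and 2648 bp (1678 and 4176) for low regions. The gap between the flanking genes had a median length of 7460.5 bp for high and 7440.5 bp for low regions. A start over 3000 bp away was found for 42.2% of high and 42.4% of low regions (odds ratio 0.990, 95% interval 0.817 to 1.20, adjusted p = 1, Fisher's exact test). The interval of this difference ran from -4.86 to 4.49 percentage points.

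Shares by the orientation of the flanking genes lay close together. Divergent gaps, whose genes point away from each other and can share a regulatory region, held 29.6% of high and 31.5% of low regions (odds ratio 0.914, 95% interval 0.743 to 1.13). Convergent gaps held 12.8% and 13% (0.986, 0.742 to 1.31). The nearest gene end was a 5′ end for 49.2% of high and 52.5% of low regions. Annotated non-coding genes or pseudogenes lay within 100 bp of 21.8% of high and 21.5% of low summits (odds ratio 1.02, 0.810 to 1.28), and pseudogenes alone of 12% and 13.9%. Chromosome arms, the outer 30% at either end, held 60.8% and 63.9% (0.877, 0.722 to 1.07). The shares of divergent and convergent gaps, non-coding genes and arms did not pass Fisher's exact test, and those of 5′ ends and of pseudogenes alone were not tested.

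Soft-masked sequence, which marks repeats, was less common around high summits. Over 50% of the bases within 100 bp were masked in 39 of 500 high regions (7.8%, 95% interval 5.76 to 10.5) and in 564 of 2870 low regions (19.7%, 18.2 to 21.1). The shares were 9.4% and 19.4% in replicate 2 and 11.2% and 19.6% in replicate 1. This measure was added after the values were seen and was not tested. Sequence repeated elsewhere in the genome, measured by 36-base words, was rare in both, in 2 high and 11 low regions.

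Several gaps held more than 1 high region. The 500 high regions lay in 436 gaps, 54 of which held 2 or more and 9 held 3 or more, so regions are not independent of each other. The gap between ptc-3, a patched-family gene, and Y110A2AL.5 held 4, with pooled signal values of 38.1, 34.2, 32.9 and 29.7. Their ranks were 5670, 8519, 94 and 3654 in replicate 2 and 188, 404, 21242 and 4721 in replicate 1. No region of this gap was thus among the 1000 highest of both replicates.

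GATA factor genes flanked a higher share of high than of low regions, in small numbers. A GATA factor gene flanked 7 high regions (1.4%, 95% interval 0.68 to 2.86) and 10 low regions (0.348%, 0.189 to 0.64), against 0.579% of all distal regions. The genes were elt-3 with 2 regions, elt-1, which specifies hypodermal fate, with 2, egl-27, an MTA-like factor with a GATA-type zinc finger, with 2, and egl-18, a seam cell GATA factor, with 1. The intervals count regions as independent, though these 7 lay beside only 4 genes. With both gaps beside elt-3 left out, the shares were 1% and 0.314%. In the replicates' own lists they were 1% and 0.477% in replicate 2 and 0.8% and 0.610% in replicate 1. Gene lists were counted and not tested.

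The gap upstream of elt-3 itself, which it shares with meg-1, held 2 high regions. The stronger one, 4059 bp from elt-3, reached 38.3 in the pooled list and held 1 copy of TGATAA, and its rank was 84 in replicate 2 but 27224 in replicate 1. The weaker one had 24.5, ranked 98 in replicate 1 and had no match in replicate 2. The 3 distal regions downstream of elt-3, towards alg-1, had 19.6, 16.9 and 12.9. The transgene also carries elt-3, and its part in these values was not tested.

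Of the other GATA genes, the stronger region beside egl-27 reached 31.6, with 2 copies of TGATAA and ranks of 262 in replicate 2 and 7921 in replicate 1. The regions beside elt-1, at 5191 and 3294 bp from its start, had 28.2 and 27.5 and ranked between 1942 and 6201 in both replicates. The region beside egl-18, 14088 bp from its start, had 25.4 and ranked 12494 in replicate 2 and 19672 in replicate 1. None of these was among the 1000 highest regions of both replicates.

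Hypodermal and seam regulators, a list that shares elt-1, elt-3 and egl-18 with the GATA factors, flanked 6 high regions (1.2%, 95% interval 0.551 to 2.59) and 12 low regions (0.418%, 0.239 to 0.729). Besides the shared genes the list added nhr-23, a nuclear receptor of the moulting cycle, with a region at a signal value of 34.2, of rank 391 in replicate 2 and 6014 in replicate 1. Cuticle collagen genes flanked 9 high regions (1.8%, 95% interval 0.95 to 3.39) and 35 low regions (1.22%, 0.878 to 1.69). Their strongest regions after that of col-17 lay beside rol-8, with 40.0 and ranks of 515 in replicate 2 and 38 in replicate 1, and beside col-144, with 38.4 and ranks of 390 and 525. Both of these collagen regions were high in both replicates.

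Hedgehog-related and patched-related genes, many of them active in the cuticle-forming epithelium, flanked 13 high regions (2.6%, 1.53 to 4.4) and 43 low regions (1.5%, 1.11 to 2.01). Of the 13, 4 were those beside ptc-3, and a further one beside grl-16 had a signal value of 36.5 at ranks 488 in replicate 2 and 1035 in replicate 1. For the hypodermal and seam, collagen and hedgehog-related lists the intervals of high and low regions overlapped.

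Of the other families, some flanked a lower share of high than of low regions. Nuclear hormone receptor genes flanked 4.2% of high and 3.94% of low regions. Homeobox genes flanked 1.8% and 2.47%, among them egl-5, vab-7 and lin-39. The bHLH, Sox, T-box and forkhead factors flanked 1.4% and 2.02%, and neuropeptide genes 1.4% and 2.54%. Chemoreceptor genes, a large family in the worm, flanked 6.8% and 8.47%, and F-box and MATH/BATH genes 2.2% and 2.93%.

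Lists of other tissues included one with as many high regions as the hypodermal and seam regulators. Genes of the intestine, where other GATA factors act, flanked 6 high regions (1.2%, 95% interval 0.551 to 2.59) and 17 low regions (0.592%, 0.37 to 0.947). The strongest lay beside the aspartic protease gene asp-5 with a signal value of 30.04, and 3 of the 6 shared the gap between asp-13 and ZC190.4. Body wall muscle genes flanked 1 high region, beside unc-89, and 6 low regions. Cytosolic ribosomal protein genes flanked 3 high regions (0.6%) and 15 low regions (0.523%).

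**Figure D4:**
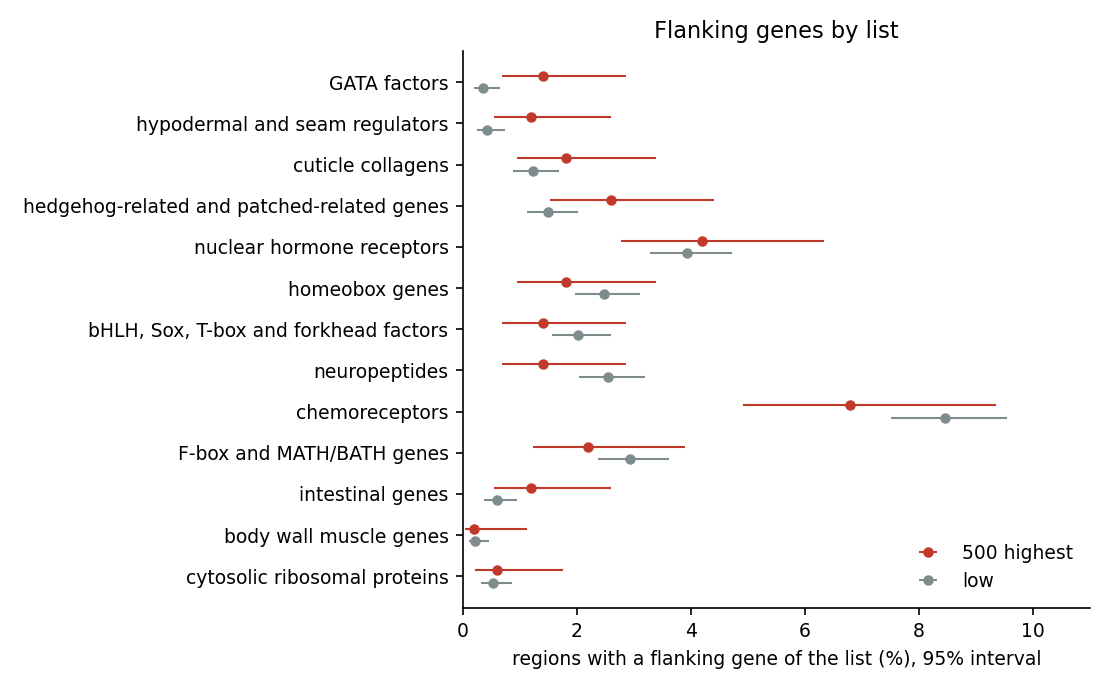
Share of regions with a flanking gene of each of the 13 lists (%, horizontal axis), with 95% Wilson intervals, for the 500 highest (upper point) and the low (lower point) distal regions. GATA factors stand at 1.4% against 0.348%, and chemoreceptors at 6.8% against 8.47%.

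Of the 500 high regions, which reached down to rank 2963 of the pooled list, few were among the 1000 highest of both replicates. A summit within 150 bp was found anywhere in the list of replicate 2 for 437 of the 500 high regions (87.4%, median rank 3025) and in that of replicate 1 for 434 (86.8%, median rank 3764.5). For low regions the shares were 40.7% and 42.9%, and for all pooled regions 55% and 57.1%. Since the pooled list was made from both replicates, these ranks are descriptions of it and not a separate test. No high region was missing from both lists, against 22.3% of low regions and 12% of all pooled regions.

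Of the 500 high regions, 128 (25.6%) matched the 1000 highest regions of replicate 2, against 3.19% of all pooled regions. The count for replicate 1 was 102 (20.4%), against 3.23% of all pooled regions, and both replicates held 20 (4%, 95% interval 2.6 to 6.1), against 0.227% of all pooled regions. Low regions numbered 6, 10 and 0. For 290 high regions (58%) neither replicate had a match among its 1000 highest, against 93.8% of all pooled regions. Of the 500 highest regions of the whole list, whatever their class, 13.4% matched in both replicates and 18.2% in neither. High distal regions reached down to pooled rank 2963, so these 2 sets differ in rank. Because pooled rank is built from both replicates, no difference from these shares is read from the high regions' counts.

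All 20 regions high in both replicates were within the 50 highest distal regions, 14 of them within the 20 highest. They made up 29.4% (20 of 68) of all pooled regions that were high in both. The authors' IDR list held 10 distal regions, which were 0.181% of the 5530 members, against 0.11% of all pooled regions, and all 10 were the 10 highest. The order of distal regions is itself made from both replicates, so nothing is read from where these regions stand in it.

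**Figure D5:**
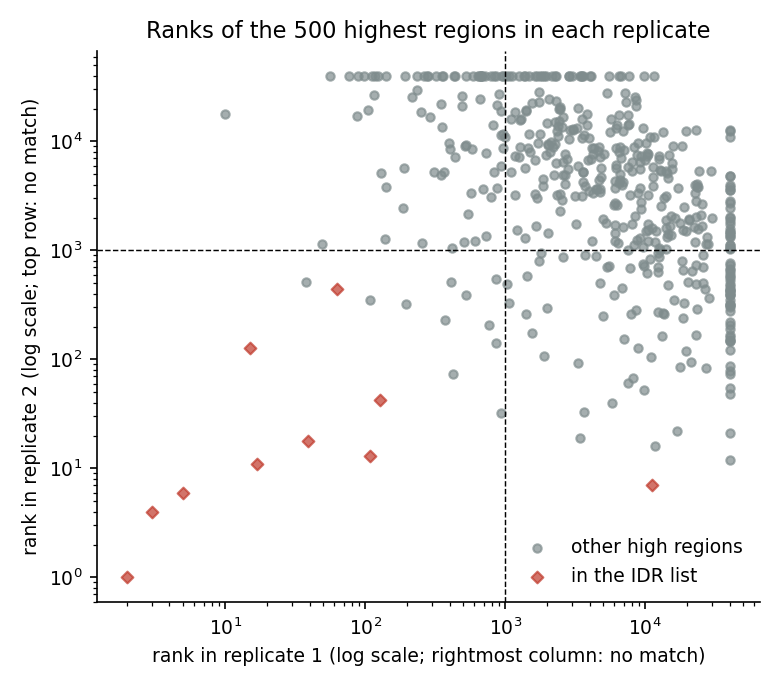
Rank of each of the 500 highest distal regions in replicate 1 (horizontal) and replicate 2 (vertical), both on log scales, with regions without a match drawn at the right edge and the top. Dashed lines mark rank 1000, 20 regions lie below it on both axes, and the region beside col-17 is the 1 IDR region (diamonds) outside that corner.

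When each replicate was ranked by itself, 41 of the 500 highest distal regions of replicate 1 lay within 150 bp of one of the 500 highest of replicate 2 (8.2%, 95% interval 6.1 to 10.9). The same count was 25 (5%) for regions near a start, 43 (8.6%) for intronic and 39 (7.8%) for exonic regions. Among low distal regions, 8.71% of those of replicate 1 matched one of replicate 2, in a much larger set. The overlap was low in all 4 classes of regions. Of the pooled high regions, 43 were in the 500 highest distal regions of both replicates, 17 of them on X, 8 on chromosome I and 9 with TGATAA.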

How the data were processed

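ELT-3 ChIP-seq regions of 2 biological replicates (1 group) were analysed in the ce11 build, which matches the WBcel235 reference. Per the authors' file listing, each list of 30000 regions was deposited as peaks together with background, called against 1 control alignment, for each replicate and for both pooled. The signal value is the deposited score of the authors' peak caller, and the q-value was deposited as −log10 of q. No aligner, caller or IDR threshold is given in the sources used here. Regions were 350 bp wide in the pooled list, 356 bp in replicate 1 and 370 bp in replicate 2, with the summit at the centre.

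Summits were classed with Ensembl release 115 gene models, and sequence came from RefSeq. The 10 features were tested with the two-sided Fisher's exact test and Benjamini-Hochberg adjustment (threshold 0.05), and shares had Wilson intervals. The calculation was checked on simulated regions with planted differences. Those regions were independent of each other, unlike regions that share a gap, so the check covers the calculation only. Regions are the units of these p-values, which say nothing of how far replicates vary. The members, features and gene lists were chosen with earlier results of these data known. Named genes flank the 15 highest members, the 5 highest with TGATAA, the 5 highest among the 500 highest members of each replicate, up to 4 genes of each list from the highest member down, elt-3, and rank 500 and the next. Names outside this rule were picked with their values known. Alternatives changed the number of high members, the low set, the ranking column, the distance rule, the motif window and the replicates. The ce10 lists were not used here. Python 3.11.15, numpy 2.4.6, pandas 2.3.3, scipy 1.17.1, statsmodels 0.14.6 and matplotlib 3.10.9 were used.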

Additional observations from a re-analysis of the deposited data

How the results depend on the processing

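The results were recomputed under 128 alternatives, 12 of them added after the values were seen, and 115 left the call or value as it was. For a feature that passed in neither setting this holds whatever its direction, as for TGATAA in replicate 1's own list. The odds ratio of chromosome I was 1.55 with the 250 highest members and no longer passed (adjusted p = 0.0669, Fisher's exact test), and over its alternatives it ran between 1.45 and 2.18. TGATAA passed in the pooled list with odds ratios of 1.84 within 50 bp, 1.37 within 150 bp and 1.57 over 3 classes of GC content. It did not pass with the 1000 highest members (1.05) or among regions over 2000 bp from a start (1.01). The wider site passed within 50 bp at 1.33. With the 20 highest members, a number chosen after the values were seen, the odds ratio of chromosome X turned to 8.02. The share of high members among the highest of both replicates was 2.6% with the 500 and 8% with the 2000 highest of each, and the overlap of the replicates' own highest members was 5% at 50 bp, 11.4% at 300 bp and 11.2% for 250 members. The median distance was 3653.5 bp where members had to lie over 2000 bp from a start, a rule that itself removes the nearer members. It was 2565 to 2631 bp in lists with 1 replicate left out, and the cause of that difference was not tested. Without replicate 1 and without replicate 2, chromosome I had odds ratios of 1.52 to 2.18 and TGATAA of 0.944 to 1.33. No paired analysis was possible because there is 1 group. Without read totals the precision of a region's signal is unknown, and 2 replicates are too few to judge the spread of a feature's share between replicates.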
